A study of Mus musculus with 32 samples.

Results

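The genes described here are those of the dopamine neuron phenotype of the olfactory bulb that serve dopamine synthesis and transport, namely Th, Ddc, Slc6a3, Slc18a2, Gch1 and Nr4a2. They were chosen by symbol, as all probes of the raw bead-array table that the platform annotation maps to these 6 genes, which gave 7 of 25697 probes and 6 of 16593 named genes. Gch1 has 2 probes and each of the other genes 1. The genes lie on mouse chromosomes 7 (Th), 11 (Ddc), 13 (Slc6a3), 19 (Slc18a2), 14 (Gch1) and 2 (Nr4a2).

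The study measured total RNA of the mouse olfactory bulb in Tshz1 mutants and controls at 2 ages, with 8 samples per group and 1 Illumina bead array per sample, 32 in all. Tshz1 encodes a zinc finger transcription factor. The mutants of embryonic day E18.5, shortly before birth, carried a GFP and a delta allele of Tshz1, and the E18.5 controls a GFP and a wild-type allele, both without a Cre allele. The P30 mutants (postnatal day 30) had Tshz1 alleles flox and GFP, and the P30 controls flox and wild type. At this age every animal of both groups was heterozygous for Nestin-Cre, a Cre recombinase that acts in neural progenitors and so in the neurons and glia that descend from them. Controls of both ages therefore had 1 altered Tshz1 allele, and the mutants of the 2 ages were made by different alleles. The strain background was mixed C57/BL6, 129/Ola and CD1. The submitters corrected the P30 genotypes after deposit by swapping control and mutant, and the corrected ones are used. No usable probe was named Tshz1, so neither age has a check on the level of that gene, and every P30 direction rests on the corrected labels.

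Dopamine neurons of the olfactory bulb are periglomerular interneurons around the glomeruli, where the axons of the olfactory sensory neurons end, and most of them also make GABA. Tyrosine is turned into L-DOPA by tyrosine hydroxylase (Th), with tetrahydrobiopterin as a cofactor whose synthesis begins with GTP cyclohydrolase (Gch1). Aromatic amino acid decarboxylase (Ddc) turns L-DOPA into dopamine, the vesicular monoamine transporter (Slc18a2) loads it into vesicles, and the plasma membrane dopamine transporter (Slc6a3) takes it back up. Nr4a2 is a nuclear receptor needed for midbrain dopamine neurons and also a gene that neurons transcribe after activity. In the bulb, Th is known to depend on input from the nose.

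Levels are given as log2 normalized intensity, each age normalized among its own arrays unless stated. Between 40.1% and 49.3% of the probes were detected above background on the P30 arrays and between 49.3% and 55.2% on the E18.5 arrays. The bulb markers Tbx21, Eomes and Cdhr1 were detected on all 32 arrays, whereas Omp, the marker of olfactory sensory neurons, was detected on none. Each age was run on its own 2 chips, A with replicates 1 to 4 and B with replicates 5 to 8, each holding 4 mutants and 4 controls. On the first principal component, P30 mutant replicates 1 and 2 and E18.5 control replicates 6 and 8 stood apart from the other arrays of their age. Th, Ddc, Slc6a3 and 1 Gch1 probe were detected on all 32 arrays. Slc18a2 was detected on 8 of 8 E18.5 mutant and 4 of 8 E18.5 control arrays, and on 5 of 8 P30 mutant and 1 of 8 P30 control arrays. Nr4a2 was detected on 6 of 8 E18.5 mutant and 3 of 8 E18.5 control arrays, and on 6 of 8 P30 mutant and 8 of 8 P30 control arrays. The values of these 2 genes thus lie near the background. The second Gch1 probe was detected on 1 of 32 arrays, an E18.5 control, and gave no fold change.

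Th, Ddc and Slc6a3 were each called higher in the P30 mutants, with the call of Th at the threshold. The 250 bases before their transcription starts in RefSeq (GRCm38.p6) are shown for that reason. They run 5′ to 3′ on the gene's strand, with the motifs found in capitals. The windows are chr7:142899996-142900245 on the minus strand for Th, chr11:11898145-11898394 and chr11:11890409-11890658 on the minus strand for the 2 starts of Ddc, and chr13:73536497-73536746 on the plus strand for Slc6a3.
Th: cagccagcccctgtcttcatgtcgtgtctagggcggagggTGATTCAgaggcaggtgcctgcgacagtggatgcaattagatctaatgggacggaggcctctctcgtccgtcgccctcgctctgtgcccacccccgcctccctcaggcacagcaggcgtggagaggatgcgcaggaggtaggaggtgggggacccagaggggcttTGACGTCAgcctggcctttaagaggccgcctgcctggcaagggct
Ddc upstream start: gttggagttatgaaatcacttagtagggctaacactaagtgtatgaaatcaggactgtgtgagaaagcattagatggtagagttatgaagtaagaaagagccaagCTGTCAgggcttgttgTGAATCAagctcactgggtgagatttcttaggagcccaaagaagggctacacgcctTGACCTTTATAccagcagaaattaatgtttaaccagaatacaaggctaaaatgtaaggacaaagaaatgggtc
Ddc downstream start: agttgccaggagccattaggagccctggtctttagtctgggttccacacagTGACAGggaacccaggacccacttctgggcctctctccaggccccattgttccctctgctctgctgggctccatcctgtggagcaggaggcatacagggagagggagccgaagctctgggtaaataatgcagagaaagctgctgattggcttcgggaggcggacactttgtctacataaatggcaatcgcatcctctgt
Slc6a3: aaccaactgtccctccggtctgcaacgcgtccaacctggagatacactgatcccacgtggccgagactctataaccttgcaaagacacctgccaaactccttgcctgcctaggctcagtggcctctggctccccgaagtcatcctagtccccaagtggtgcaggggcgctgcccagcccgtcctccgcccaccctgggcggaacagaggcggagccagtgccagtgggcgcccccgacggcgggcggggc
Both strands were searched for TGACGTCA (the cAMP response element), TGANTCA (the AP-1 motif), AAAGGTCA (the NBRE motif that Nr4a receptors bind), TGACAG (MEIS), TAATTA (homeodomain), CCGGAAG (ETS) and, for the TATA box, TATAAA. The Th window holds TGACGTCA 45 to 38 bases before the start, as 1.55% of 32851 mouse windows of this length do, and an AP-1 match 210 to 204 bases before it, a motif present in 6.75%. The upstream Ddc window holds the NBRE motif on the other strand 73 to 66 bases before the start (1.34% of windows), overlapping a TATA box match on the other strand at 68 to 63 (12.4%), and also an AP-1 and a MEIS match (MEIS in 15.9%). The downstream Ddc window holds a MEIS match, and the Slc6a3 window holds none of these letters. The homeodomain motif (4.84%) and the ETS motif (6.91%) were in none of the 4 windows. A match describes the letters only, and no motif is shared by all 4 windows.

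The first comparison asked what the bulb of Tshz1 mutants looks like before birth. At E18.5 the gene of the rate-limiting enzyme, Th, was lower in the mutants, and the other 5 genes did not pass the test. Th lay at 8.21, 8.44 and 8.69 (lowest, median and highest of 8) in E18.5 mutants and at 8.83, 9.21 and 9.88 in E18.5 controls. Every mutant was below every control, and the mutants were also the less spread group, with an SD of 0.14 against 0.37. The level was 8.44 ± 0.14 in mutants and 9.25 ± 0.37 in controls (SD, n = 8 each), a log2 change of -0.81 (95% interval -1.10 to -0.52), which is 1.76-fold lower (limma adjusted p = 0.00464). The change was -0.83 within chip A and -0.80 within chip B, and chip B alone, with 4 arrays per genotype, did not pass (adjusted p = 0.822). Without control replicates 6 and 8 it was -0.66 (limma adjusted p = 0.00861). In bulk tissue, fewer cells of a type and less RNA per cell cannot be told apart.

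Against this 1 of 6 genes, 0.507% of the 10852 genes tested at E18.5 were called lower (0.581% in either direction), and 0.304% were lower with no overlap between the groups. With median scaling Th kept its size but not its call (-0.81, limma adjusted p = 0.0549).

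**Figure D1:**
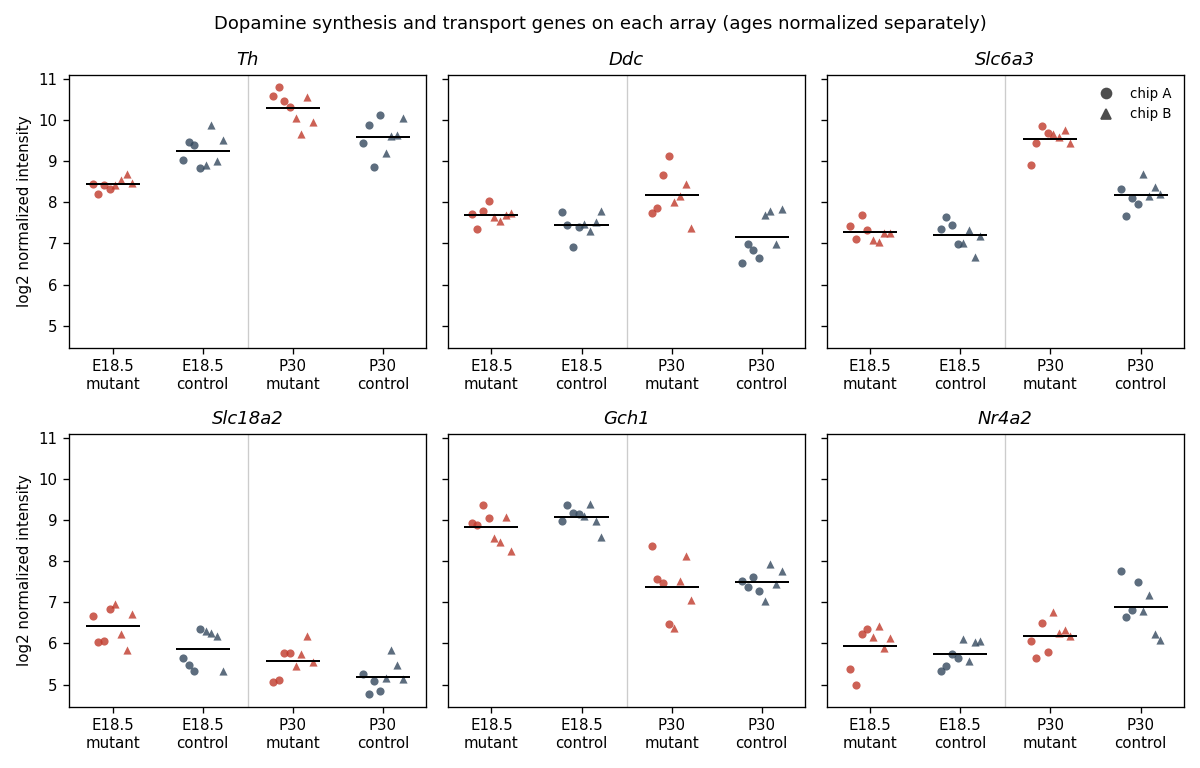
Log2 normalized intensity of the 6 genes on each array, with E18.5 and P30 normalized separately. Each point is 1 array (red for mutants, dark for controls; circles chip A, triangles chip B) and the line is the group mean. Th is lower in all 8 E18.5 mutants than in any E18.5 control, and Slc6a3 is higher in all 8 P30 mutants than in any P30 control.

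Of the other enzymes at E18.5, Ddc lay at 7.35, 7.71 and 8.02 in mutants and at 6.91, 7.46 and 7.78 in controls, and 7 of 8 mutants exceeded the control median. Its change of 0.24 (95% interval -0.02 to 0.49) did not pass (limma adjusted p = 0.594). Gch1 lay at 8.26, 8.90 and 9.36 in mutants and at 8.57, 9.11 and 9.39 in controls, with a change of -0.27 (-0.58 to 0.05, adjusted p = 0.615). The groups of both enzymes overlapped.

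The transporters also overlapped between the E18.5 groups. Slc6a3 lay at 7.05, 7.26 and 7.69 in mutants and at 6.66, 7.25 and 7.64 in controls, a change of 0.08 (-0.20 to 0.35, adjusted p = 0.865). Slc18a2 lay at 5.83, 6.45 and 6.97 in mutants and at 5.32, 5.91 and 6.34 in controls, and 4 mutants exceeded all controls. Its change of 0.56 (0.14 to 0.98) had an unadjusted p = 0.0119 in limma's test but an adjusted p = 0.392, as 972 of the 10852 genes had an unadjusted p under 0.05. Nr4a2 lay at 4.99, 6.14 and 6.41 in mutants and at 5.33, 5.69 and 6.10 in controls, a change of 0.19 (-0.20 to 0.59, adjusted p = 0.764). It was detected on 6 of 8 mutant and 3 of 8 control arrays and entered the test through the mutants, so this change is given as a description.

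None of the 6 genes was called higher at E18.5, where 0.0737% of all genes were. Around the pathway at E18.5, lists of related genes were counted in the same fit. Among 5 measured genes of tetrahydrobiopterin synthesis and recycling, 0 passed, and the smallest p was that of Gch1. Of 3 genes of dopamine breakdown 0 passed, with the smallest p at Aldh1a1, an aldehyde dehydrogenase (-0.06, adjusted p = 0.893). Of 4 dopamine receptor and signalling genes 0 passed, with the smallest p at Ppp1r1b, the phosphatase inhibitor DARPP-32 (0.46, adjusted p = 0.343). Of 10 transcription factors linked to the fate of bulb dopamine neurons 0 passed, with the smallest p at Nr2f1 (0.49, adjusted p = 0.183). Etv1, an ETS factor that acts on Th in bulb neurons, changed by 0.77 (adjusted p = 0.615) and Meis2, a homeodomain factor of these neurons, by -0.38 (adjusted p = 0.548).

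Genes of other lists did pass at E18.5. Of 3 genes of GABA synthesis and transport 2 fell, Gad1, a GABA-making enzyme (-0.63, adjusted p = 0.0268), and Slc32a1, the vesicular GABA transporter (-0.48, adjusted p = 0.0147). The median change of the 3 was -0.48, against -0.01 over all genes tested. Of 7 genes listed for other periglomerular cells 1 fell, Cck, a neuropeptide precursor (-0.58, adjusted p = 0.0166). Which cells of the bulb gave the Cck signal was not tested. Calb2, the marker of calretinin cells, changed by 0.06 (adjusted p = 0.841). Of 5 granule cell markers 2 fell, Gng4 (-0.71, adjusted p = 0.000755) and Nrgn (-0.82, adjusted p = 0.0177), and the summed raw intensity of the 5 ranged from 9947 to 17025 in mutants and from 12132 to 20708 in controls. Of 7 activity-regulated genes 0 passed, with the smallest p at Junb, an AP-1 subunit (-0.51, adjusted p = 0.477), and of 5 genes of synaptic vesicles and of dopamine neuron growth and survival 0 passed, with the smallest p at Bdnf (-0.25, adjusted p = 0.521).

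Markers of mast cells, which are immune cells, were counted too. Of 5 mast cell markers 1 fell at E18.5, Cpa3, a mast cell protease (-1.63, adjusted p = 0.0147), detected on 7 of 8 mutant and 8 of 8 control arrays. Cma1, another mast cell protease, was detected on 3 of 8 mutant and 8 of 8 control arrays. It entered the test through the controls, so its fitted change of -0.98 is given as a description. The median change of the 5, -0.61, was that of Tpsb2, detected on 1 of 8 mutant and 3 of 8 control arrays. Srgn changed by 0.09 (adjusted p = 0.873). The summed raw intensity of the 5 ranged from 769 to 1366 in mutants and from 861 to 2048 in controls. Hdc, the histamine-making enzyme of mast cells, changed by -0.61 (adjusted p = 0.297), and Ms4a2 and Mcpt4 were detected on no array.

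In the other cell lists 0 members passed at E18.5. The smallest p was that of Slc17a6 (0.23) among 9 mitral and tufted cell markers, Slc1a2 (-0.22) among 5 of astrocytes, C1qb (-0.38) among 7 of microglia, Stmn2 (0.17) among 4 of neuroblasts, Gap43 (0.15) among 3 of sensory axons, Rgs5 (0.39) among 7 of endothelium and pericytes, Olig1 (-0.29) among 4 of oligodendrocytes and Slc4a1 (-0.23) among 3 of blood. The part of cell composition in the Th change was not tested.

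The second comparison asked the same of the young adult bulb. At P30 the dopamine transporter Slc6a3, the decarboxylase Ddc and Th were higher in the mutants. These are 3 of the 6 genes, where 2% of the 9928 genes tested were called higher (4.33% in either direction, 2.33% lower). The median change of the 6 was 0.54, against 0.01 over all genes tested.

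Slc6a3, which returns released dopamine to the cell, had the largest change of the 6. It lay at 8.91, 9.62 and 9.85 (lowest, median and highest of 8) in P30 mutants and at 7.67, 8.18 and 8.68 in P30 controls, and as raw intensity at a median of 848 in mutants and 366 in controls. Every mutant was above every control, which held in this direction for 0.524% of all genes. The level was 9.54 ± 0.29 in mutants and 8.19 ± 0.30 in controls (SD, n = 8 each), a log2 change of 1.35 (95% interval 1.01 to 1.69), which is 2.55-fold higher (limma adjusted p = 1.74e-05). The change was 1.45 within chip A and 1.25 within chip B.

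Ddc, the second enzyme of synthesis, lay at 7.37, 8.08 and 9.11 in P30 mutants and at 6.53, 6.99 and 7.84 in P30 controls. Of the mutants 6 exceeded all controls, and all 8 exceeded the control median. The level was 8.17 ± 0.56 in mutants and 7.17 ± 0.53 in controls, a log2 change of 1.00 (0.50 to 1.51), 2.01-fold higher (limma adjusted p = 0.0169). The change was 1.59 within chip A and 0.42 within chip B, and chip B alone did not pass (adjusted p = 0.533). Median scaling (0.91, adjusted p = 0.149) and testing without a filter on dim probes (1.00, adjusted p = 0.0590) also ended its call.

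Th, whose E18.5 change was a fall, lay at 9.65, 10.38 and 10.79 in P30 mutants and at 8.85, 9.62 and 10.13 in P30 controls. Of the mutants 5 exceeded all controls, and all 8 exceeded the control median. The level was 10.29 ± 0.39 in mutants and 9.60 ± 0.43 in controls, a log2 change of 0.70 (0.28 to 1.11), 1.62-fold higher (limma adjusted p = 0.0464). This call sits at the threshold: it was kept in 5 of 16 fits that left out 1 array, where the change ran from 0.59 to 0.79 and its adjusted p from 0.0211 to 0.106. The change was 0.96 within chip A and 0.43 within chip B.

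**Figure D2:**
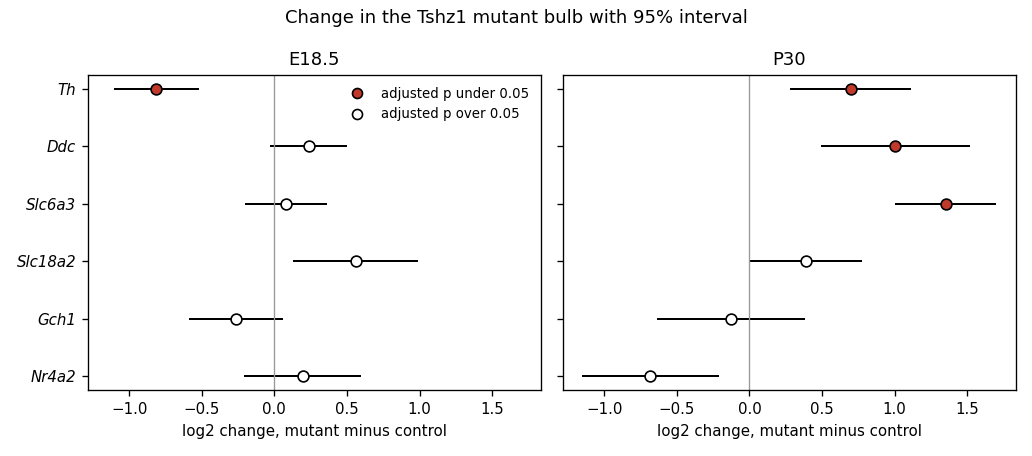
Log2 change, mutant minus control, of the 6 genes at E18.5 (left) and P30 (right) with the 95% interval of the limma fit. Filled points passed at an adjusted p under 0.05: Th at -0.81 at E18.5, and Slc6a3 at 1.35, Ddc at 1.00 and Th at 0.70 at P30.

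The other 3 genes did not pass at P30. Slc18a2, the vesicular transporter, lay at 5.07, 5.64 and 6.19 in P30 mutants and at 4.77, 5.14 and 5.83 in P30 controls. Its change was 0.39 (0.01 to 0.77, limma unadjusted p = 0.0433, adjusted p = 0.287), and 1598 of the 9928 genes had an unadjusted p under 0.05. Slc18a2 was detected on 5 of 8 mutant and 1 of 8 control arrays. It entered the test through the mutants, so this change is given as a description. Gch1, the cofactor enzyme, lay at 6.36, 7.50 and 8.36 in mutants and at 7.03, 7.48 and 7.94 in controls, a change of -0.13 (-0.63 to 0.38, adjusted p = 0.873). Its mutants were spread both above and below the controls, with an SD of 0.71 against 0.28. Nr4a2 lay at 5.66, 6.22 and 6.76 in mutants and at 6.08, 6.81 and 7.75 in controls, a change of -0.68 (-1.14 to -0.22, adjusted p = 0.0904), and no mutant exceeded the control median. Within chips, its change was -1.17 (A) and -0.19 (B), and without control replicate 8 it passed (-0.78, adjusted p = 0.0390).

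The P30 changes of Ddc, Th and Nr4a2 were larger in size on chip A than on chip B, and that difference was not tested. Chip A held mutant replicates 1 and 2, which stood apart. Without them the change of Slc6a3 was 1.48 (limma adjusted p = 3.12e-06) and that of Ddc 1.14 (adjusted p = 0.00828). Th was at 0.56 and lost its call (adjusted p = 0.114), and Nr4a2 was at -0.58 (adjusted p = 0.168).

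**Figure D3:**
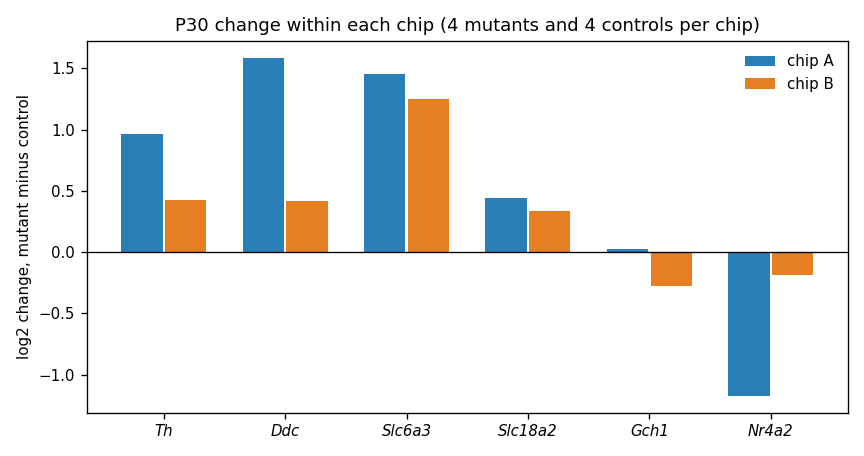
P30 log2 change, mutant minus control, of each gene within chip A (blue) and chip B (orange), from 4 mutants and 4 controls per chip. Slc6a3 is nearly equal on both chips at 1.45 and 1.25, whereas Ddc is 1.59 and 0.42 and Nr4a2 -1.17 and -0.19.

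The rest of the dopamine pathway at P30 was counted in the same way. Of 5 cofactor genes 0 passed, and the smallest p was that of Gchfr, the feedback regulator of GTP cyclohydrolase (-0.64, adjusted p = 0.0774), detected on 1 of 8 mutant and 4 of 8 control arrays. Gchfr entered the test through the controls, so this change is given as a description. Of 3 breakdown genes 0 passed, with the smallest p at Aldh2 (0.50, adjusted p = 0.154). Of 4 receptor and signalling genes 1 rose, Ppp1r1b (0.81, adjusted p = 0.00435). The receptors Drd1 (0.39, adjusted p = 0.211) and Drd2 (0.49, adjusted p = 0.153) did not pass. The mean of the 4 genes was higher in all 8 mutants than in any control. Such separation was not particular to this list, as 7 of 8 mutants exceeded all controls for the microglial and for the mitral and tufted cell lists. Of single genes, 0.524% were higher with no overlap. Ppp1r1b, Drd1 and Drd2 are also abundant in the striatum, and the part of neighbouring tissue in these values was not tested.

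No factor linked to dopamine fate was called higher at P30. Of 10 measured 1 fell, Meis2 (-0.67, adjusted p = 0.0269), a marker counted among granule cells as well. Etv1 changed by -0.10 (adjusted p = 0.943). Dlx5 was detected on 1 of 8 mutant and 5 of 8 control arrays. It entered the test through the controls, so its fitted change of -0.51 is given as a description. Of the 8 midbrain dopamine factors on the array, Foxa1, Foxa2, Lmx1a, Pitx3 and En2 were detected on no array, and the 2 measured, Otx2 and Lmx1b, passed neither at E18.5 (adjusted p = 0.611 and 0.967) nor at P30 (adjusted p = 0.770 and 0.993). Dbh and Pnmt of noradrenaline and adrenaline synthesis and Slc6a4, the serotonin transporter, were detected on no array either. The same held for Pax6 and Gsx2 of the bulb fate factors, and for Gad2, Calb1 and Synpr of the GABA, periglomerular and granule cell lists. An undetected probe does not show that its transcript was absent from the bulb.

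Genes that neurons transcribe after activity are given beside Nr4a2, which belongs to them. Of 9 measured at P30, 4 fell: Egr2 (-2.39, adjusted p = 2.59e-05), Arc (-1.88, adjusted p = 0.000828), Fosb (-1.90, adjusted p = 0.000904) and Npas4 (-1.50, adjusted p = 0.0198). All 8 controls detected each of the 4, whereas on mutant arrays Fosb was detected on 3 of 8, Egr2 on 6, and Arc and Npas4 on 7 each, so Fosb entered the test through the controls and its count adds no support. The summed raw intensity of the 9 ranged from 6677 to 19448 in mutants and from 8655 to 32508 in controls, and their mean change on chips A and B was -1.55 and -0.67. The Nr4a2 relatives Nr4a1 and Nr4a3 were detected on no array. After the group means were removed, Nr4a2 and the mean of the 9 correlated at r = 0.46 over the 16 P30 arrays, which share chips and normalization. Over the 16 E18.5 arrays Nr4a2 and the mean of the 7 measured there had r = -0.23. With the P30 mean of the 9, Ddc had r = -0.49 and Slc18a2 -0.42, so the value of Nr4a2 does not stand out in size.

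Cell markers moved at P30 beside the dopamine genes. Of 7 other periglomerular markers 1 rose, Trh, a neuropeptide precursor (1.19, adjusted p = 0.00211), and 1 fell, Kcnip1, a potassium channel partner (-0.98, adjusted p = 0.000222). Calb2 changed by 0.41 (adjusted p = 0.242), and Gad1, which bulb dopamine neurons also use, by -0.37 (adjusted p = 0.202). Of 5 granule cell markers 4 fell, Gng4 (-1.25), Nrgn (-2.06), Pbx3 (-0.63) and Meis2. The summed raw intensity of the 5, which is not normalized, was 4909 to 9636 in mutants and 9668 to 15011 in controls. Of 5 vesicle, growth and survival genes Gdnf, a growth factor of dopamine neurons, was detected on 2 of 8 mutant and 8 of 8 control arrays. It entered the test through the controls, so its fitted change of -1.08 is given as a description.

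Of 7 microglial markers 3 rose, C1qa (1.06), C1qb (1.06) and Trem2 (0.80), with a summed raw intensity of 2897 to 4752 in mutants and 1795 to 3367 in controls. Of 7 astrocyte markers 1 rose, Gfap (1.48), with a sum of 24963 to 56175 in mutants and 27462 to 45565 in controls. Of 9 mitral and tufted cell markers 2 rose, Slc17a7 (1.12) and Tbr1 (0.95), and 1 fell, Doc2g (-0.72), with a sum of 15809 to 40362 in mutants and 15910 to 29812 in controls. In the remaining cell lists 0 passed, with the smallest p at Stmn2 (0.70, adjusted p = 0.0551) for neuroblasts, Gap43 (0.46) for sensory axons, Rgs5 (-0.53) for endothelium and pericytes, Cnp (0.25) for oligodendrocytes, Alas2 (-0.23) for blood and Hdc (0.23, adjusted p = 0.675) for mast cells. The part of these shifts in the values of Slc6a3, Ddc and Th was not tested.

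**Figure D4:**
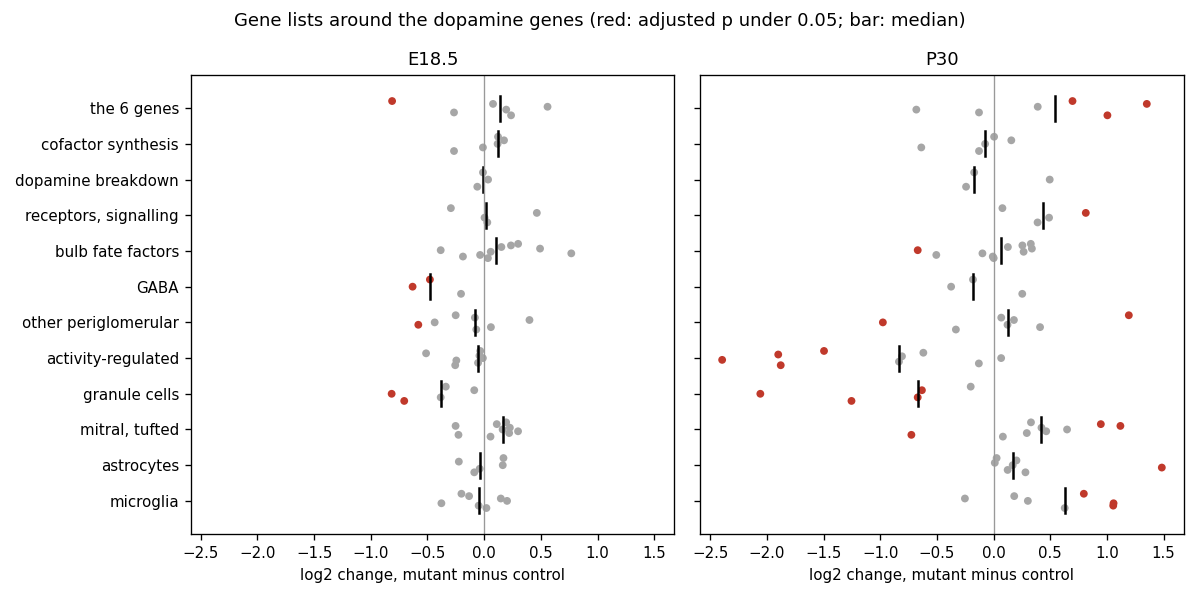
Log2 change, mutant minus control, of each measured gene in the lists around the dopamine genes at E18.5 (left) and P30 (right). Each point is 1 gene (red where the adjusted p is under 0.05) and the bar is the list median. At P30 the 6 dopamine genes have a median of 0.54, whereas the granule cell list has -0.67 and the activity-regulated list -0.83.

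The third comparison set the mutant change at P30 against that at E18.5 in one fit over all 32 arrays. Th and Slc6a3 differed between the ages, 2 of 6 genes where 1.03% of 11312 genes were called in that direction (1.85% in either). For Th the change at P30 exceeded that at E18.5 by 1.46 (95% interval 0.97 to 1.94, limma adjusted p = 0.000249), and for Slc6a3 by 1.26 (0.86 to 1.67, adjusted p = 0.000142). Both passed in all 10 alternative fits and in all 32 fits without 1 array.

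For Ddc the difference was 0.86 (0.26 to 1.46, adjusted p = 0.140) and for Nr4a2 -0.99 (-1.63 to -0.34, adjusted p = 0.107). Without P30 control replicate 8 that of Nr4a2 passed (-1.12, adjusted p = 0.0405). Nr4a2 was detected on 3 of 8 E18.5 control arrays, so its difference rests in part on values near the background. Slc18a2 (0.07, -0.52 to 0.67) and Gch1 (0.09, -0.56 to 0.74) had intervals that cover changes of either sign. In the same fit 0 of 6 cofactor, 0 of 4 receptor and signalling and 0 of 10 fate factor genes were called. The smallest p was at Gchfr (-0.78, adjusted p = 0.179), Drd2 (0.62, adjusted p = 0.254) and Dlx5 (-0.68, adjusted p = 0.0961). Gchfr and Dlx5 were each detected on 1 of 8 P30 mutant arrays. Gchfr entered this fit through the P30 controls, so its difference is given as a description. Of 9 activity-regulated genes 3 were called lower, Egr2 (-2.39), Fosb (-2.14) and Arc (-1.72). Egr2 and Fosb were detected on 0 of 8 E18.5 mutant arrays, and on 2 and 1 of 8 E18.5 control arrays. The E18.5 part of their differences thus rests on values near the background. Their differences are given as a description, and their count adds no support. Of 7 other periglomerular markers Trh was called higher (1.36). Age, the chips and the alleles used to make the mutants change together here and cannot be told apart.

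The fourth comparison described the genes over development in the controls, P30 minus E18.5, on the scale of all 32 arrays normalized together. It shares the controls of both mutant comparisons. Slc6a3, Nr4a2 and Th were higher at P30 with no overlap between the ages. These are 3 of 6 genes, where 11.3% of all genes were called higher by an adjusted p under 0.05 and at least 2-fold (23.9% in either direction), and 11.6% were higher with no overlap.

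Slc6a3 was at 8.99 ± 0.30 in P30 controls and 6.80 ± 0.28 in E18.5 controls (SD, n = 8 each), 4.56-fold higher (limma adjusted p = 1.13e-15). Nr4a2 was at 7.55 ± 0.68 in P30 controls and 5.56 ± 0.24 in E18.5 controls, 3.96-fold higher in the fit (adjusted p = 1.95e-09). It was detected on 8 of 8 P30 and 3 of 8 E18.5 control arrays, so the size of this fold depends in part on the background. Th was at 10.38 ± 0.42 in P30 controls and 8.74 ± 0.37 in E18.5 controls, 3.11-fold higher (adjusted p = 2.35e-10). Ddc changed by 0.86 (adjusted p = 0.000582), which is under 2-fold, and was not called. By an adjusted p under 0.05 alone, 61.8% of genes would have passed. Slc18a2 (-0.30, adjusted p = 0.206) and Gch1 (-0.31, adjusted p = 0.241) did not pass.

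This comparison depends on the scaling. With median scaling the median of all genes shifted to -0.53, against -0.01, and the share of higher genes among the calls was 13.9%, against 47.4%. Th was then at 0.87, under 2-fold, and Gch1 at -1.07 and called lower, whereas Slc6a3 (1.51) and Nr4a2 (1.57) kept their calls.

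The pathway lists of the P30 controls against the E18.5 controls were as follows. In the cofactor list 1 of 6 was called higher, Gchfr, detected on 4 of 8 P30 and 1 of 8 E18.5 control arrays. It entered the test through the P30 controls, so its fitted change of 1.18 is given as a description and its count adds no support. Of the breakdown genes 1 of 3 was higher, Aldh1a1 (2.52), of the receptor and signalling genes 1 of 4, Ppp1r1b (1.68), and of the GABA genes 2 of 3, Gad1 (2.64) and Abat (1.09). Of 10 fate factors Etv1 was higher (1.67), and Klf7 (-1.80) and Nr2f2 (-1.41) were lower, as was Otx2 (-2.04) of the 2 midbrain factors. Otx2 was detected on 3 of 8 P30 and 8 of 8 E18.5 control arrays, so the size of its fold depends in part on the background.

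Genes of other periglomerular cells and of activity were counted in the same way. Of 7 genes listed for other periglomerular cells 5 were called higher, the 4 of smallest p being Cck (6.06), Cacng5 (1.67), Kcnip1 (1.28) and Trh (1.43). Of 9 activity-regulated genes 7 were higher, among them Fos (4.43), Egr1 (3.44), Arc (3.62) and Egr2 (4.11), the last detected on 2 of 8 E18.5 control arrays. Of 6 vesicle, growth and survival genes 3 were higher and 1 lower. Bdnf (3.15) and Sncg (1.53) were higher and Slc10a4 (-1.57) lower, and Gdnf, also higher, was detected on 8 of 8 P30 and 0 of 8 E18.5 control arrays and is given no fold. Of 2 genes of other monoamine neurons 0 were called, with the smallest p at Hdc (0.53, adjusted p = 0.0250), under 2-fold.

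On that common scale the 4 groups had the following order for each gene. Th was highest in P30 mutants (11.05 ± 0.37), then P30 controls (10.38 ± 0.42), E18.5 controls (8.74 ± 0.37) and E18.5 mutants (7.95 ± 0.13). The ranges of both P30 groups overlapped, and no other neighbours in this order did. Slc6a3 was highest in P30 mutants (10.32 ± 0.28), then P30 controls (8.99 ± 0.30), and the E18.5 mutants (6.87 ± 0.19) and E18.5 controls (6.80 ± 0.28) did not differ beyond their spread. Ddc followed the same order, with 8.97 ± 0.57 in P30 mutants, 7.89 ± 0.60 in P30 controls, 7.24 ± 0.18 in E18.5 mutants and 7.03 ± 0.25 in E18.5 controls, and each neighbouring pair overlapped.

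Nr4a2 was highest in P30 controls (7.55 ± 0.68), then P30 mutants (6.72 ± 0.47), E18.5 mutants (5.72 ± 0.41) and E18.5 controls (5.56 ± 0.24), with overlap at each step. Slc18a2 ran from E18.5 mutants (6.12 ± 0.36) over P30 mutants (5.89 ± 0.52) and E18.5 controls (5.66 ± 0.37) to P30 controls (5.35 ± 0.47), with overlap at each step. Gch1 ran from E18.5 controls (8.57 ± 0.25) over E18.5 mutants (8.31 ± 0.35) and P30 controls (8.27 ± 0.31) to P30 mutants (8.10 ± 0.79), also with overlap at each step.

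How the 6 genes varied together from array to array differed between pairs and ages. After the group means were removed, the highest Pearson r between 2 of them over 32 arrays was 0.42, between Ddc and Slc18a2, followed by 0.34 between Ddc and Slc6a3. Th and Slc6a3 had r = -0.05 over 32 arrays, with 0.44 over the 16 E18.5 arrays and -0.32 over the 16 P30 arrays. Within the 16 P30 arrays Slc6a3 and Slc18a2 had r = 0.60, Ddc and Slc18a2 0.51 and Ddc and Slc6a3 0.47. Within the 16 E18.5 arrays Slc6a3 and Gch1 had r = 0.51 and Slc6a3 and Slc18a2 -0.43. Slc18a2 was detected on 5 of 8 P30 mutant, 1 of 8 P30 control and 4 of 8 E18.5 control arrays. Every r of Slc18a2 in this paragraph thus rests in part on values near the background. The tested genes most like each by this measure were Eif2d for Th (r = 0.81), Hbs1l for Ddc (0.71), Cdca7 for Slc6a3 (0.70), Unc13b for Slc18a2 (0.78), Lgi2 for Gch1 (0.76) and Atmin for Nr4a2 (0.76). The next likest were an unnamed probe (0.79) and Use1 (0.78) for Th, Gtf3c3 (0.69) and Mycbp (0.67) for Ddc, Nccrp1 (0.69) and Cstf3 (0.66) for Slc6a3, an unnamed probe (0.78) and Ppp4r3a (0.75) for Slc18a2, Gja4 (0.75) and Cdc20 (0.75) for Gch1, and an unnamed probe (0.66) and Dhx38 (0.65) for Nr4a2. These are the highest of 11311 values each, over arrays that share chips and normalization.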

How the data were processed

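Total RNA of 32 olfactory bulb samples was measured on Illumina bead arrays, in 4 groups of 8. The submitters' processing notes name GenomeStudio without a version. The raw table the authors deposited holds an average intensity with its detection p-value per probe and array, per the file headers. The deposited normalized table holds intensities, 25.7% of them below 0, and served as an alternative. Of 25697 probes, 23978 carry 1 gene name and 1719 none in the platform annotation.

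Raw intensities were background corrected, quantile normalized and put on the log2 scale with neqc (limma 3.58.1, R 4.3.3, offset 16), each age on its own for the mutant comparisons and all arrays together for the others. Probes were kept if at least 4 arrays in a fit had a detection p under 0.05, and the probe of highest mean stood for its gene. lmFit and eBayes were used, two-sided, with Benjamini-Hochberg adjustment over all genes tested and a threshold of 0.05, and for age also 2-fold. The script was tested on simulated data. The number of arrays limits the precision.

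The genes and lists were chosen with earlier results of these data known. Named are each dopamine gene on every probe, of each list the members past the threshold (at most 4 of smallest p per direction) or else its smallest p, and the 3 genes most like each dopamine gene. For the difference between the ages fewer lists are described, and for the controls over age the pathway lists only. The others named (Etv1, Meis2, Calb2, Cma1, Tpsb2, Srgn and Lmx1b at E18.5, and Dlx5, Etv1, Drd1, Drd2, Calb2 and Lmx1b at P30) were chosen after their values were seen.

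Whether replicates are separate animals is not said, so the p values refer only to the spread among these samples, which may be technical. No 2 arrays of a group held identical values. Replicate numbers are shared between mutants and controls and within an age lie on the same chip. At E18.5, deviations from the group means of same-numbered samples correlated at r = 0.12 to 0.36 in all 8 pairs. This is at most a weak hint of pairing, from the data and not from the labels. Such samples share a chip, and 2 of 8 controls and 3 of 8 mutants correlated best with their own number. The reported fits carry no block for the number, which was used in an alternative. Within a chip r was -0.08 to 0.30. Alternatives covered the scaling, background correction, dim-probe filter, probe choice, deposited table, blocks for replicate number and chip, each chip alone, joint normalization and leaving out arrays. Those without the arrays that stand apart were chosen after seeing the data. Promoter windows are from RefSeq (GRCm38.p6), in which all 6 genes matched by symbol.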

Additional observations from a re-analysis of the deposited data

Results flagged for a closer look

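Slc6a3 in P30 mutant replicate 1 was at 8.91 (log2 normalized intensity), the lowest of 8 mutants, while the next was at 9.43, a gap of 0.56 of the group's range. Chance marks about 1 group in 20 in this way. That array also stood apart on the first principal component, and without it the P30 change of Slc6a3 was 1.44 (limma adjusted p = 2.92e-06), against 1.35 with it. The mutant change differed between P30 and E18.5 for Th, by 1.46 on the log2 scale, and for Slc6a3, by 1.26, each by the test of the difference itself. Age, chip and the alleles cannot be told apart in both.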

How the results depend on the processing

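The P30 call of Slc6a3 was kept in 13 of 13 alternatives (1.14 to 1.48), the E18.5 call of Th in 11 of 13, the P30 call of Ddc in 10 of 13 and the P30 call of Th in 6 of 13. The E18.5 change of Th lost its call with median scaling (-0.81, limma adjusted p = 0.0549) and on chip B alone (-0.80, adjusted p = 0.822). The P30 change of Th lost it with median scaling (0.60), the deposited normalized table (0.67), no filter on dim probes (0.70), chip A alone (0.97), chip B alone (0.43), all 32 arrays normalized together (0.67) and without mutant replicates 1 and 2 (0.56), with adjusted p over all 13 alternatives between 0.0320 and 0.484. Ddc at P30 lost it with median scaling (0.91), no filter (1.00) and chip B alone (0.44), with adjusted p between 0.00828 and 0.533. Gch1, never called at P30, was at 0.029 on chip A alone. In the difference between the ages, Slc18a2 was at -0.091 with median scaling and Gch1 at -0.095 without the arrays that stand apart. In the controls over age, median scaling gave 0.87 for Th and -1.07 for Gch1. The causes were not tested, although each chip alone has fewer samples and no filter means more genes tested.

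Counts of called genes were 63 at E18.5, against 41 on chip A alone and 5 on chip B alone, and 430 at P30, against 137 and 194. The count for the difference between the ages was 209, against 84 with median scaling, 380 with the replicate block and 364 with chip as a block. In the controls over age, 2698 genes were called, against 1503 without background correction. The replicate block changed no call of the 6 genes. It gave 62 calls at E18.5 and 539 at P30, where same-numbered samples correlated at r = -0.07 to 0.42, over 0.1 in 6 of 8 pairs, and 4 of 8 controls and 2 of 8 mutants correlated best with their own number.

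Leaving out 1 array at a time, Th at E18.5 stayed called in 16 of 16 (-0.87 to -0.71), as did Slc6a3 (1.28 to 1.44) and Ddc (0.87 to 1.12) at P30. Th at P30 (0.59 to 0.79) lost its call without control replicate 1, 2, 3, 5, 6 or 7 or mutant replicate 1, 2, 3, 4 or 7. Nr4a2 ran from -0.78 to -0.56 and Gch1 from -0.27 to 0.015 at P30. In the difference between the ages Nr4a2 ran from -1.12 to -0.85, Slc18a2 from -0.044 to 0.20 and Gch1 from -0.061 to 0.26. Slc18a2 and Nr4a2 lie near the background, which limits the precision of their changes.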
